A study of Mus musculus with 24 samples.

Results

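The strain comparison described here set the lung of C3H/HeMs mice against the lung of A/J mice, and its members were 8 of the 24 arrays of the series, 4 of each strain. Each array held lung RNA pooled from 3 female mice aged 12 to 13 weeks, and each strain gave 1 pool without irradiation (control) and pools taken 1 h, 12 h and 72 h after a local dose of 10 Gy gamma rays to the thorax. Arrays of the same time were set against each other, so that the strain difference was measured in 4 pairs. C3H/HeMs and A/J are inbred strains, and the comparison held no other allele or agent. Irradiation was the same in both strains, and 3 of the 4 pairs had received it. Lung of C57BL/6J mice (4 arrays, the same dose and times) and skin of the hind leg of C3H/HeMs and A/J mice (8 arrays, the same times after a higher local dose to that leg) were used only for comparison. Every array also held a reference mixed from RNA of 10 organs. Values are log2 ratios of lung RNA to that reference, with the median of each array set to 0, so a difference of 1 is a 2-fold difference. The labels give 1 pool for each strain and time, so p-values rest on variation over pools of different times, and in the fits with C57BL/6J or skin on that of those arrays too.

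Inbred strains differ at many fixed sequence variants, and some of these alter the transcript level of a gene in every tissue, in some tissues or at some times. Lung is made up of airway and alveolar epithelium, a dense capillary bed, connective tissue and resident leukocytes, among them many natural killer (NK) cells. In pooled whole tissue a lower level of a cell type's transcripts can come from fewer cells or from less RNA per cell, which cannot be told apart here. A/J mice are known to lack functional complement component C5, encoded by Hc, and C3H mice have it.

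The arrays carried the profile of lung in both strains. Among the 12 lung epithelium genes on the arrays, 11 had a mean above the reference in C3H/HeMs and 11 in A/J. Ager, a receptor of alveolar type 1 cells, lay between 2.84 and 3.21 on the C3H/HeMs arrays and between 2.97 and 3.32 on the A/J arrays. The 12 h and 72 h arrays of both strains stood apart from the other lung arrays. They held 183 and 115 probes with a ratio of exactly 0 in C3H/HeMs and 674 and 607 in A/J, where the control and 1 h arrays held 1 to 23. Across features, arrays of the 2 strains at the same time correlated at 0.90 to 0.91, and arrays of 1 strain from different sets at 0.80 to 0.89.

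In the limma fit of the 8 arrays, with time as a factor, 0 of 8750 features passed an adjusted p of 0.05, which is 0% of those tested. The smallest adjusted p was 0.0614, for Fjx1. At an unadjusted p under 0.05 there were 1060 features (12.1%), against 437.5 that a rate of 0.05 would give. Of these, 399 were higher in C3H/HeMs (4.56%) and 661 were lower (7.55%). This split depended on how arrays were centred: the share that was higher was 37.6% here, 53.5% without centring and 45.8% after quantile normalization.

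The same contrast was called for 37 features (0.423%) when the 4 C57BL/6J lung arrays were added to the fit, which raised the residual degrees of freedom to 6, against 3 in the fit of 8 arrays. The fit of 8 arrays left the C57BL/6J arrays out because, at 12 h and 72 h, they were not among those that stood apart. They held 8 and 3 probes with a ratio of exactly 0 at these times. The time factor of the fit of 12 arrays thus joined arrays of both sets at 12 h and 72 h. That fit was an alternative, and naming its genes was decided with the values in view. The calls below, and the words higher and lower used with an adjusted p, are from this fit of 12 arrays. Of the 37 features, 23 were higher in C3H/HeMs (0.263%) and 14 were lower (0.16%), and 25 of them had a gene name. All 37 had the same sign at all 4 times, as did 22.3% of all features. For 36 the arrays of the 2 strains did not overlap, as for 419 of all 8750 features. The calls were made on these same arrays, so neither count is separate support. None of the 37 had a ratio of exactly 0 or at the deposited limit on the 8 arrays. The count rested on single arrays. It fell to 18, 15, 10 and 6 features without the control, 1 h, 12 h or 72 h array of C3H/HeMs. It fell to 16, 18 and 9 without the control, 12 h or 72 h array of A/J, to 24 without the 72 h array of C57BL/6J, and was 32 without the 1 h array of A/J. Without the 4 arrays that stood apart, 6 features passed in the 8 arrays left. Of these, 1 was among the 37, a probe with no gene name, so no named call held in that fit. With the set of arrays as a further factor 70 passed, and all 37 were among them. Calls of Ccn4, Gzma and Fjx1 and of 2 probes with no gene name were kept in each of the 12 fits that left out a single array. Cd59a and Dclre1a were kept in 11, Zfp945 in 10, Abcc10 in 9, Klrd1 and Zfp979 in 7, and Bst1 and Tmem252 in 6. Hc, Krt15 and Mrps12 were kept in 5, Adamdec1 and Xdh in 3, and Mfap5, Nkg7, Omt2b and Scyl2 in 2. Ifi207, Rabgap1l and Smad4 were kept in 1.

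**Figure D1:**
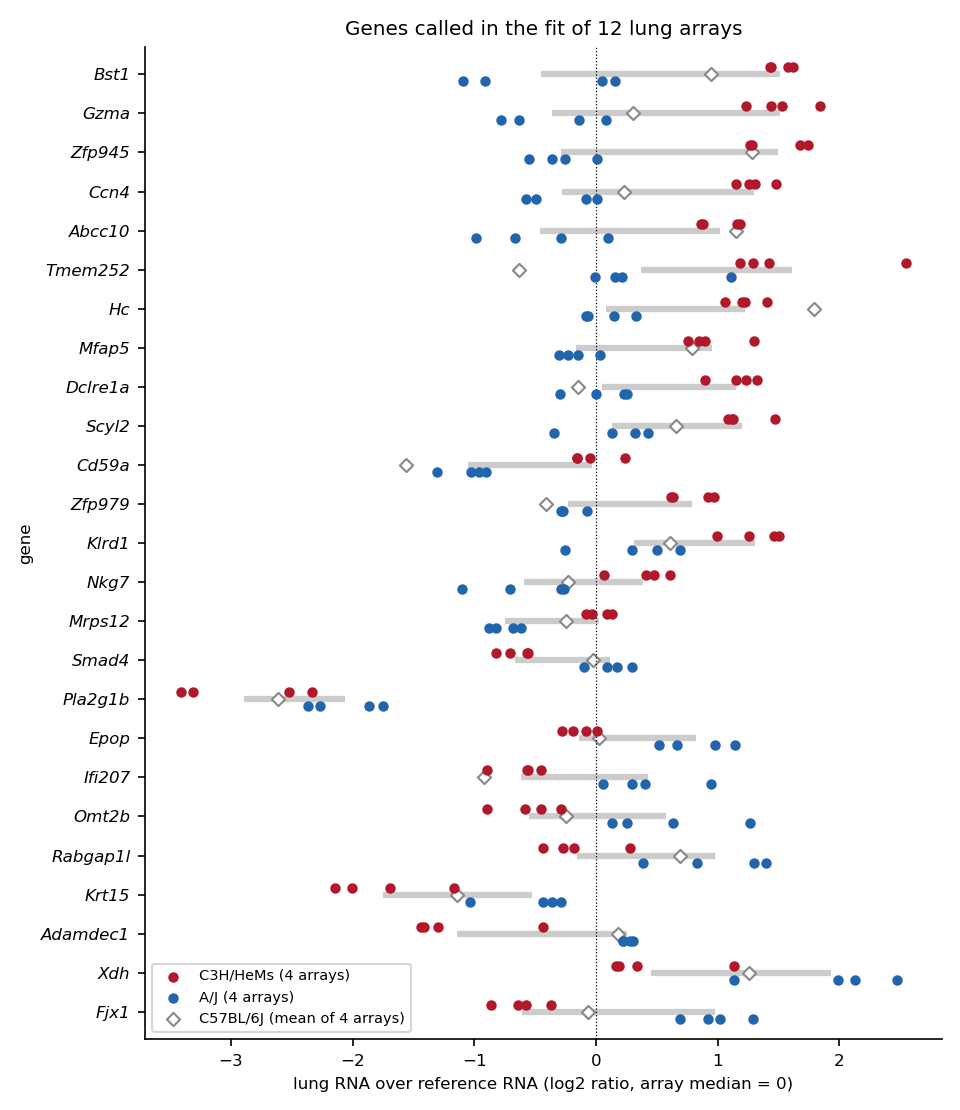
Log2 ratio of lung RNA to the reference (horizontal axis) for the 25 named genes called in the fit of 12 lung arrays. Red points are the 4 C3H/HeMs arrays, blue points the 4 A/J arrays, open diamonds the mean of the 4 C57BL/6J arrays, and the grey bar joins the means of C3H/HeMs and A/J. Red and blue points do not overlap for 24 of the 25 genes, though for Xdh the nearest pair lies at 1.13 in both strains, and they overlap slightly for Pla2g1b.

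Transcripts of 3 genes of cytotoxic lymphocytes were higher in C3H/HeMs lung at every time. Gzma encodes granzyme A, a protease of the granules of NK and cytotoxic T cells. The log2 ratio of Gzma was 1.52, 1.44, 1.23 and 1.84 in C3H/HeMs lung at control, 1 h, 12 h and 72 h, against 0.08, -0.14, -0.78 and -0.63 in A/J lung. The lowest C3H/HeMs array lay more than 2-fold above the highest A/J array. Gzma was one of 8 features (0.0914%) at least 2-fold higher in C3H/HeMs at each of the 4 times, as were Ccn4, Bst1, Zfp945 and Abcc10 described below. The difference was 1.87 ± 0.18 (SE), or 3.67-fold, with an adjusted p of 0.00402.

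Klrd1 encodes CD94, the partner chain of NKG2 receptors on NK cells. The log2 ratio of Klrd1 was 1.46, 1.50, 1.00 and 1.26 in C3H/HeMs lung, against 0.69, 0.50, -0.25 and 0.29 in A/J lung. Every C3H/HeMs array lay above every A/J array, and both strains had their lowest value at 12 h. The difference was 1.00 ± 0.13 (adjusted p 0.0155). Nkg7, a membrane protein of cytotoxic granules, had log2 ratios of 0.61, 0.47, 0.06 and 0.41 in C3H/HeMs lung, against -0.26, -0.29, -1.10 and -0.70 in A/J lung. It too was lowest at 12 h in both strains, and the difference was 0.98 ± 0.15 (adjusted p 0.0337). Of the 12 fits that left out 1 array, 7 kept the Klrd1 call and 2 the Nkg7 call.

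The wider list of T and NK cell genes was mixed. Of 23 measured members, 15 had a positive difference and 8 a negative one, where 58.2% of all features were negative, and the median was 0.15, against -0.04 over all features. Only Gzma, Klrd1 and Nkg7 were called in the fit of 12 arrays, and the arrays of the 2 strains did not overlap for these 3 alone (over all features, C3H/HeMs arrays lay wholly above A/J arrays in 1.54%). Ccl5, a chemokine of activated T and NK cells, had a difference of 1.00 ± 0.27 and Gzmb, the granzyme B gene, of 0.79 ± 0.30 in the fit of 8 arrays. Ccl5 thus differed by as much as Klrd1 and Nkg7, but its arrays overlapped between the strains, and neither gene passed the adjusted threshold in either fit. T cell receptor complex genes lay near 0, with Cd3d at 0.00 ± 0.14, Cd3g at 0.07 ± 0.16 and Cd3e at -0.16 ± 0.16. The list's median was -0.01 and -0.10 in the control and 1 h pairs and 0.29 and 0.46 in the 12 h and 72 h pairs, so most of it came from the arrays that stood apart, whose part in it was not tested. For Gzma, Klrd1 and Nkg7 the difference was positive in all 4 pairs.

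Promoters of these genes are shown because their transcripts differed together. Of Gzma, Klrd1 and Nkg7, 2 had a promoter in the RefSeq table used (GRCm38.p6, C57BL/6J sequence), a window of 300 bases around the start of the gene. Each was searched on both strands for GGTGTGA (T-box core), TGTGGTT (RUNX core) and CAGGAAG (ETS core), named after factor families known in cytotoxic lymphocytes. Matches are in capitals and sequences run in the direction of the gene.
Gzma, chr13:113100932-113101231, minus strand: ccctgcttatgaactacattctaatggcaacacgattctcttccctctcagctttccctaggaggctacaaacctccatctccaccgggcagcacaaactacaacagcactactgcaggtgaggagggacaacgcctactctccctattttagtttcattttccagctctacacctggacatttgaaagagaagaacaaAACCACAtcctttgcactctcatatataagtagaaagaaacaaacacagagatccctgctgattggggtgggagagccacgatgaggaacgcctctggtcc
Nkg7, chr7:43436888-43437187, plus strand: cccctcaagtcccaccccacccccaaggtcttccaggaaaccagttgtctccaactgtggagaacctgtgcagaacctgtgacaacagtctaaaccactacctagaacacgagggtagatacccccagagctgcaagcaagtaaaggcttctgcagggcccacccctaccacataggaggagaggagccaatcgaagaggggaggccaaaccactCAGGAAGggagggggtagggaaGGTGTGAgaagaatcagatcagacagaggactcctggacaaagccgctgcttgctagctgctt
The Gzma window held 1 RUNX core, on the opposite strand (AACCACA), at base 200. The Nkg7 window held an ETS core at base 216 and a T-box core at base 238. Of 32851 promoters in the table, 5.27% held the RUNX core, 13.3% the ETS core and 3.98% the T-box core on either strand. A match describes these letters in the reference strain and says nothing of the sequence of C3H/HeMs or A/J.

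Both ends of the terminal complement pathway held a called gene. Hc encodes complement component C5, from which the membrane attack complex starts. Its log2 ratio was 1.06, 1.20, 1.22 and 1.41 in C3H/HeMs lung at control, 1 h, 12 h and 72 h, against -0.08, 0.14, 0.32 and -0.07 in A/J lung. The A/J arrays lay close to the level of the reference and all C3H/HeMs arrays above it. The difference was 1.14 ± 0.16, or 2.21-fold, with an adjusted p of 0.0242.

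Cd59a encodes a membrane-anchored inhibitor of that complex. Its log2 ratio was -0.16, -0.16, -0.05 and 0.24 in C3H/HeMs lung, against -1.31, -0.96, -1.03 and -0.90 in A/J lung. It varied little over the times in either strain, and the difference was 1.02 ± 0.11 (adjusted p 0.00725). C57BL/6J lung lay on opposite sides for these genes, at 1.79 ± 0.31 for Hc and -1.56 ± 0.11 for Cd59a (SD, n = 4 arrays). Of the 3 strain means, that of C57BL/6J was the highest for Hc and the lowest for Cd59a. The wider list of complement and coagulation genes showed no common direction. Of 32 measured members 14 had a positive and 18 a negative difference, with a median of -0.04, and its median turned to 0.01 without centring. Procr, the endothelial protein C receptor, had the next largest positive difference of the list's named members, at 0.72 ± 0.18 in the fit of 8 arrays, and was not called.

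**Figure D2:**
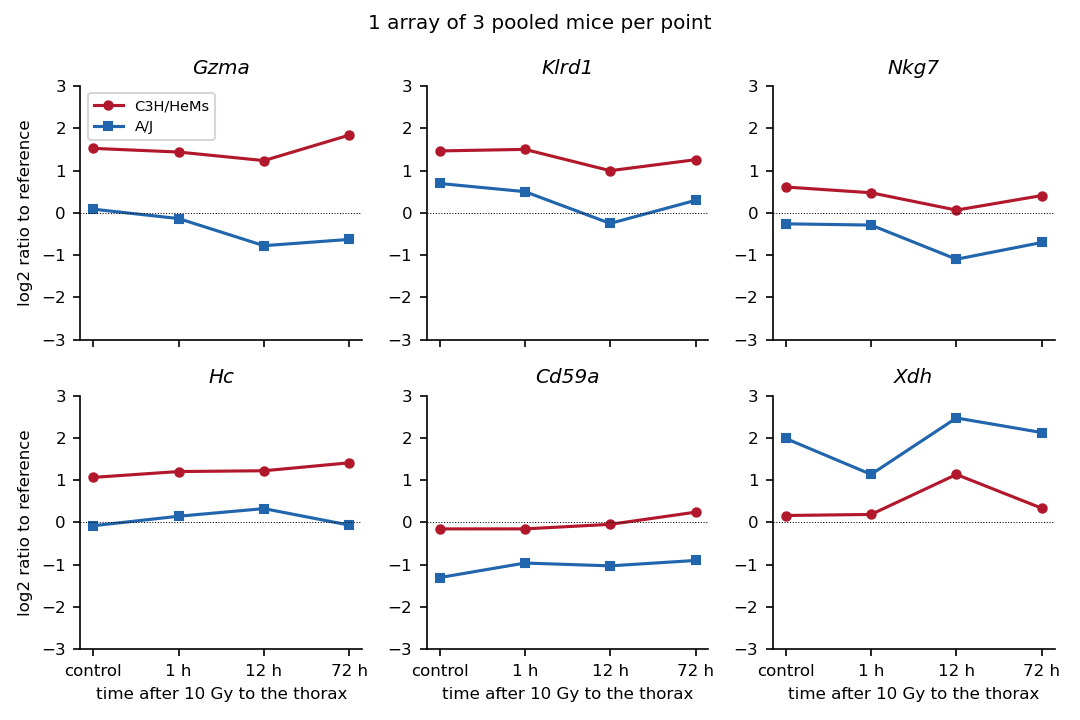
Log2 ratio of lung RNA to the reference (vertical axes) for 6 called genes in control pools and at 1 h, 12 h and 72 h after irradiation (horizontal axes, evenly spaced). Each red circle is 1 C3H/HeMs array and each blue square 1 A/J array of 3 pooled mice. The C3H/HeMs line lies above the A/J line at all 4 times for Gzma, Klrd1, Nkg7, Hc and Cd59a and below it for Xdh.

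The secreted matrix proteins Ccn4 and Mfap5 were both called higher in C3H/HeMs. Ccn4 encodes a secreted matricellular protein of the CCN family. It had log2 ratios of 1.15, 1.48, 1.30 and 1.26 in C3H/HeMs lung, against -0.08, -0.49, 0.01 and -0.57 in A/J lung. The difference was 1.58 ± 0.15, or 2.99-fold (adjusted p 0.00402), and the gap was at least 2-fold at each time. Mfap5, a glycoprotein of elastic microfibrils, had 0.76, 0.85, 0.90 and 1.29 in C3H/HeMs lung, against -0.15, -0.23, -0.30 and 0.03 in A/J lung, a difference of 1.11 ± 0.17 (adjusted p 0.0337).

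Of 39 measured members of the extracellular matrix and fibroblast list, 28 had a positive difference and 11 a negative one, with a median of 0.20. Over all features 58.2% were negative. Mfap5 was the only member called, and 4 members were higher and 3 lower at an unadjusted p under 0.05 (4.56% and 7.55% of all features). The members on the higher side were Mfap5, Lamb2, Col1a1 and Mgp, and those on the lower side Tgfbi, Mfap4 and Lamc1. Tgfbi, a matrix protein induced by TGF-beta, averaged -0.15 ± 0.14 in C3H/HeMs lung and 0.46 ± 0.26 in A/J lung (SD, n = 4 each).

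Other genes higher in C3H/HeMs belonged to varied functions. Bst1, a surface ADP-ribosyl cyclase also known as CD157, had the largest named difference of that direction. The log2 ratio of Bst1 was 1.57, 1.43, 1.62 and 1.44 in C3H/HeMs lung, against 0.15, 0.05, -0.92 and -1.09 in A/J lung. The C3H/HeMs values were nearly level while the A/J values were lower at 12 h and 72 h, the times of the arrays that stood apart. The difference was 1.97 ± 0.26, or 3.91-fold (adjusted p 0.0163). Abcc10, an efflux transporter of the ABC family, had a similar form, with 1.18, 0.87, 0.88 and 1.15 in C3H/HeMs lung, against 0.10, -0.29, -0.66 and -0.99 in A/J lung (1.48 ± 0.18, adjusted p 0.0146).

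Zfp945, a zinc finger protein gene, had log2 ratios of 1.28, 1.27, 1.74 and 1.68 in C3H/HeMs lung, against -0.55, 0.00, -0.36 and -0.25 in A/J lung. The difference was 1.78 ± 0.20, or 3.44-fold (adjusted p 0.00938). Zfp979, another zinc finger protein gene, averaged 0.78 ± 0.19 in C3H/HeMs lung and -0.23 ± 0.10 in A/J lung. Dclre1a, whose product SNM1A is a nuclease of DNA crosslink repair, averaged 1.15 ± 0.18 in C3H/HeMs lung and 0.04 ± 0.26 in A/J lung. The adjusted p was 0.0146 for Zfp979 and 0.00938 for Dclre1a.

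Tmem252 had its highest value at 1 h in both strains, 2.54 in C3H/HeMs lung and 1.11 in A/J lung. At the other times it lay between 1.19 and 1.42 in C3H/HeMs lung and between -0.01 and 0.22 in A/J lung, so the 1 h value of A/J lay just under the lowest of C3H/HeMs. Scyl2, a pseudokinase of clathrin-coated vesicles, averaged 1.20 ± 0.18 in C3H/HeMs lung and 0.13 ± 0.34 in A/J lung. Mrps12, a protein of the small subunit of the mitochondrial ribosome, averaged 0.03 ± 0.10 and -0.75 ± 0.12 in the same order (SD, n = 4 each). Their differences were 1.24 ± 0.16 for Tmem252, 1.07 ± 0.15 for Scyl2 and 0.78 ± 0.10 for Mrps12, with adjusted p of 0.0163, 0.0262 and 0.0182.

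The called genes with a name included 10 lower in C3H/HeMs lung, and Fjx1 had the smallest p of all features in both fits. It is the mouse counterpart of four-jointed, a Golgi kinase that acts in planar cell polarity in Drosophila. Its log2 ratio was -0.86, -0.64, -0.57 and -0.37 in C3H/HeMs lung, against 0.69, 1.01, 0.92 and 1.29 in A/J lung. The difference was -1.59 ± 0.12 (adjusted p 0.00206), a level 3.01-fold higher in A/J, and Fjx1 was one of 2 features (0.0229%) at least 2-fold lower at each of the 4 times.

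Xdh encodes xanthine dehydrogenase, the last enzyme of purine breakdown to uric acid. Its log2 ratio was 0.16, 0.19, 1.13 and 0.33 in C3H/HeMs lung, against 1.98, 1.13, 2.47 and 2.12 in A/J lung. Both strains had their highest value at 12 h, and only the 12 h array of C3H/HeMs lay at the level of the lowest A/J array. The difference was -1.47 ± 0.23 (adjusted p 0.0354). Adamdec1, a secreted metalloprotease of macrophages and dendritic cells, had -0.44, -1.30, -1.42 and -1.44 in C3H/HeMs lung, against 0.22, 0.31, 0.22 and 0.28 in A/J lung. The A/J values were level, and the C3H/HeMs control stood above its 3 irradiated pools. The difference was -1.40 ± 0.21 (adjusted p 0.0277).

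Krt15, a keratin of basal epithelial cells, averaged -1.75 ± 0.43 in C3H/HeMs lung and -0.53 ± 0.34 in A/J lung (SD, n = 4 each). Ifi207, of the interferon-inducible p200 family, averaged -0.62 ± 0.19 in C3H/HeMs lung and 0.43 ± 0.38 in A/J lung. Ifi203 of the same family averaged 0.19 ± 0.14 and 1.03 ± 0.52 in the same order, was not called, and both of its probes were lower in C3H/HeMs. Probes of such closely related genes can share signal, so the values of these genes are uncertain. Differences of the called genes were -1.22 ± 0.18 for Krt15 and -1.04 ± 0.17 for Ifi207, with adjusted p of 0.0271 and 0.0424.

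The remaining lower genes were Omt2b (-1.13 ± 0.17), Rabgap1l, a GTPase activator for Rab proteins (-1.13 ± 0.18), Epop, a partner of the Polycomb complex PRC2 (-0.96 ± 0.16), Pla2g1b, a secreted phospholipase (-0.83 ± 0.14), and Smad4. Their adjusted p ran up to 0.0429. Smad4, the common mediator of TGF-beta and BMP signalling, had a mean difference of -0.78 ± 0.12 from 2 probes that disagreed in size, at -0.23 and -1.32. Epop and Pla2g1b were called in none of the 12 fits that left out 1 array. Among the smallest p of the fit of 8 arrays in this direction were also Sfxn2 and Tmc3, which were not called in either fit. Sfxn2, a sideroflexin of the mitochondrial membrane, averaged -0.17 ± 0.26 in C3H/HeMs lung and 0.73 ± 0.40 in A/J lung. Tmc3, of the transmembrane channel-like family, averaged -0.45 ± 0.42 in C3H/HeMs lung and 0.55 ± 0.21 in A/J lung.

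Lung epithelium genes were mostly lower in C3H/HeMs, but none was called. Of 12 measured, 11 had a negative and 1 a positive difference, where 58.2% of all features were negative. The median was -0.39 against -0.04 over all features, and the counts were the same under all 4 scalings. At an unadjusted p under 0.05 in the fit of 8 arrays 6 were lower and 0 higher (7.55% and 4.56% of all features). Scgb3a1, a secretoglobin of airway cells, had log2 ratios of 0.56, 0.91, 1.89 and 1.35 in C3H/HeMs lung, against 2.06, 2.01, 2.64 and 2.32 in A/J lung. Both strains were higher at 12 h and 72 h, on the arrays that stood apart, than at control and 1 h. No C3H/HeMs array reached the lowest A/J array. Scgb3a1, Napsa and Scgb1a1 were the 3 members whose C3H/HeMs arrays all lay below the A/J arrays, as did 3.25% of all features. Its difference was -1.09 ± 0.15, with an adjusted p of 0.131 in the fit of 8 arrays and 0.103 in that of 12.

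Scgb1a1, the club cell secretory protein, had 1.66, 1.40, 2.82 and 2.39 in C3H/HeMs lung, against 3.55, 2.92, 3.14 and 2.83 in A/J lung. Sftpc, the surfactant protein C gene of alveolar type 2 cells, had 0.98, 0.98, 3.17 and 2.98 in C3H/HeMs lung, against 2.44, 2.02, 3.31 and 3.04 in A/J lung. For both genes the strains were far apart in the control and 1 h pairs and close in the 12 h and 72 h pairs. The latter are the arrays that stood apart, so time and set of arrays cannot be told apart here. Napsa, an aspartic protease that processes surfactant protein, averaged -0.84 ± 0.10 in C3H/HeMs lung and -0.16 ± 0.24 in A/J lung, and Cyp2f2, a cytochrome P450 of club cells, 2.47 ± 0.38 and 2.97 ± 0.44 in the same order. Ager and Sftpd differed less, by -0.12 ± 0.13 and -0.30 ± 0.12.

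Drug and steroid metabolism genes leaned the same way, by less. Of 33 measured, 24 had a negative and 9 a positive difference, with a median of -0.13, where 58.2% of all features were negative. The split depended on the scaling, with 21 negative without centring and 19 after quantile normalization. At an unadjusted p under 0.05, 8 were lower and 1 higher (7.55% and 4.56% of all features), and 0 were called. Cyp4b1, a cytochrome P450 with high levels in lung, averaged 0.85 ± 0.46 in C3H/HeMs lung and 1.53 ± 0.43 in A/J lung. Within each time the gap was even, and its difference was -0.68 ± 0.09 (adjusted p 0.131 in the fit of 8 arrays). Aldh1a1, Aldh1a7, Cyp2b10, Cyp2b9, Cyp2d9, Cyp2f2 and Sult1d1 were the other 7 members on the lower side, and Adh1 the member on the higher side. Paralogs such as Aldh1a1 and Aldh1a7, or Cyp2b9 and Cyp2b10, can share signal on one probe.

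**Figure D3:**
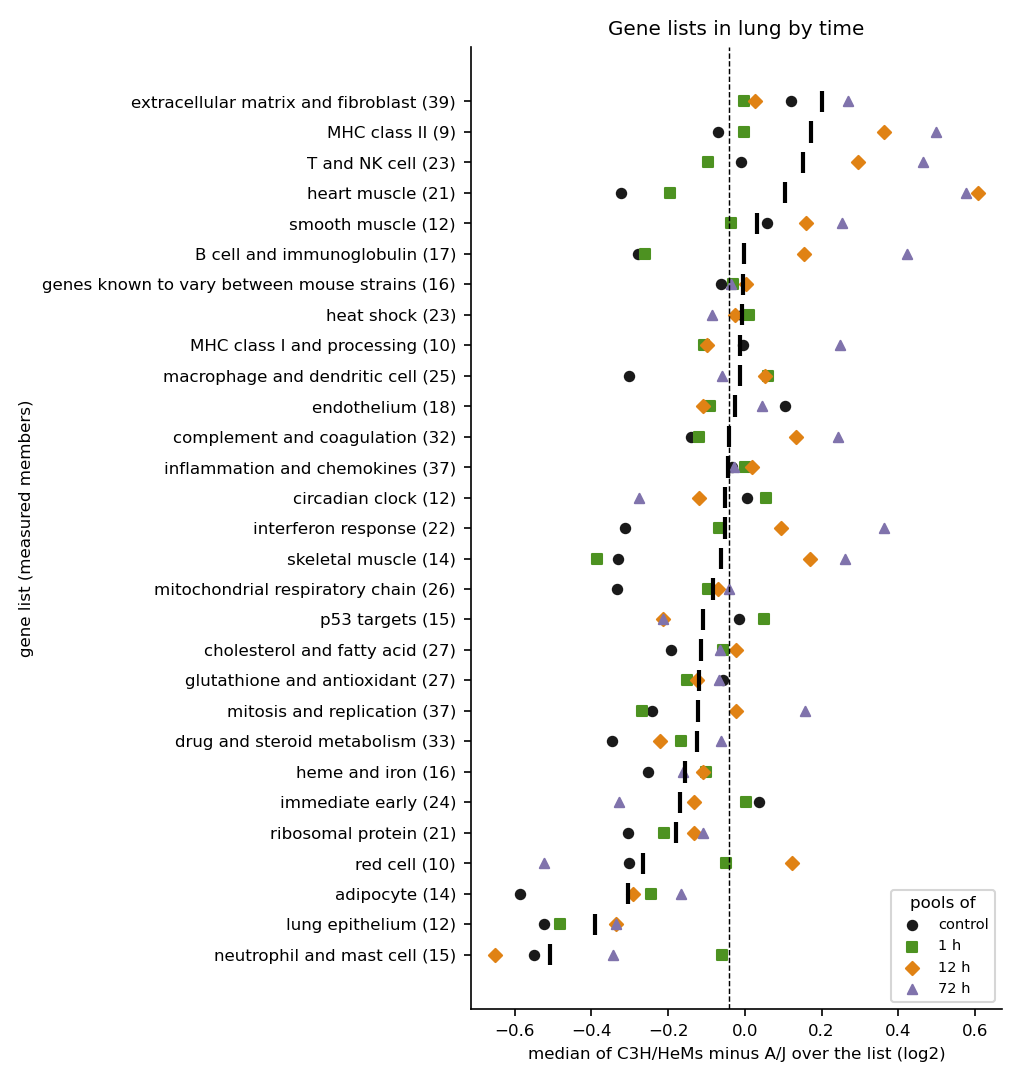
Median of the C3H/HeMs minus A/J difference in log2 ratio (horizontal axis) over the measured members of 29 gene lists (vertical axis, number of members in brackets). Symbols give the pairs of control, 1 h, 12 h and 72 h pools. The short bar is the median over members of each member's difference fitted over all 4 pairs. The dashed line is the median of all 8750 features, -0.04. Lung epithelium, adipocyte, ribosomal protein, drug and steroid metabolism, heme and iron, and glutathione genes lie left of the line at all 4 times. So do neutrophil and mast cell genes, only just at 1 h (-0.06), and mitochondrial respiratory chain genes, only just at 72 h (-0.04). Heart muscle genes lie left of it at control and 1 h and right of it at 12 h and 72 h.

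The list with the lowest median was that of neutrophil and mast cell genes, at -0.51. Of its 15 members 12 were negative and 3 positive, where 58.2% of all features were negative. None was called, and 4 were lower at an unadjusted p under 0.05, as were 7.55% of all features. Ltf, the lactoferrin gene, had log2 ratios of -1.06, -1.26, -0.97 and -1.84 in C3H/HeMs lung, against 0.85, 0.09, -0.57 and -0.12 in A/J lung. All C3H/HeMs arrays lay below all A/J arrays, and the difference was -1.35 ± 0.26 (adjusted p 0.201 in the fit of 8 arrays). Camp, the cathelicidin gene, averaged -1.22 ± 0.24 in C3H/HeMs lung and -0.60 ± 0.43 in A/J lung, and Hdc, which makes histamine, -0.20 ± 0.26 and 0.42 ± 0.38. S100a8, of the calprotectin complex, had -0.18, 1.17, 0.50 and 0.25 in C3H/HeMs lung, against 0.49, 0.69, 2.89 and 2.42 in A/J lung, so its gap was widest at 12 h and 72 h and had the other sign at 1 h.

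Adipocyte genes had a median of -0.31, with 13 of 14 negative, and 5 lower at an unadjusted p under 0.05 (Plin2, Cebpa, Cidec, Fasn and Ucp1). Over all features 58.2% were negative and 7.55% lower at such a p. Ucp1, the thermogenic protein of brown fat, had -1.50, -1.91, -0.79 and -1.08 in C3H/HeMs lung, against 0.45, -0.30, -0.43 and -1.18 in A/J lung. The gap was widest in the control pair and had the other sign at 72 h. In skin the same list had a median of -0.57, against -0.10 over all features. The lists with a lower lung median, neutrophil and mast cell and lung epithelium, had skin medians of -0.01 and 0.03.

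Of the other cell types, red cell genes had a median of -0.26 (9 of 10 negative, or 7 without centring), where 58.2% of all features were negative. Heart muscle genes all lay below the reference in both strains, and their median difference was -0.32 and -0.20 in the control and 1 h pairs, against 0.61 and 0.58 in the 12 h and 72 h pairs. Myh6, the cardiac myosin heavy chain, had -3.18, -2.47, -2.41 and -2.21 in C3H/HeMs lung, against -3.44, -3.31, -3.37 and -3.37 in A/J lung (adjusted p 0.0964 in the fit of 12 arrays). Ribosomal protein genes had small differences, from -0.32 to 0.37, with 20 of 21 negative (18 after quantile normalization) and a median of -0.18. MHC class II genes had a median of 0.17, which came from the 12 h and 72 h pairs (0.36 and 0.50), against -0.07 and 0.00 in the control and 1 h pairs. Smooth muscle genes had a median of 0.03, and neither list had a called member.

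Medians of B cell, macrophage and dendritic cell, endothelium, MHC class I, interferon, inflammation, heat shock, circadian clock, mitochondrial respiratory chain and skeletal muscle genes, and of genes known to vary between mouse strains, lay between -0.08 and 0.00. The sign of each of these turned under at least 1 other scaling. Some of these medians joined pairs of opposite sign. B cell genes had -0.28, -0.26, 0.15 and 0.42 in the control, 1 h, 12 h and 72 h pairs, interferon genes -0.31, -0.07, 0.09 and 0.36, and skeletal muscle genes -0.33, -0.38, 0.17 and 0.26. In the list of genes known to vary between strains, Hc, Cd59a and Xdh were called and the other 13 measured members were not. The remaining lists had medians of -0.11 for p53 targets and for cholesterol and fatty acid genes, -0.12 for mitosis and for glutathione genes, -0.16 for heme and iron and -0.17 for immediate early genes. None of them had a called member.

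In both strains the irradiated pools carried a higher level of a known p53 target than the control pool. This was Cdkn1a, the inhibitor of cyclin-dependent kinases, with log2 ratios of 0.41, 2.90, 3.32 and 3.37 in C3H/HeMs lung at control, 1 h, 12 h and 72 h, against 1.10, 2.89, 3.87 and 3.52 in A/J lung. The largest gap between the strains was in the control pair. The test of whether the strain difference in the 3 irradiated pairs differed from that in the control pair called 0 features (0%), with 328 at an unadjusted p under 0.05 (3.75%). With 1 control pool per strain, this contrast rests on 1 array of each. The named genes with the smallest p were Sh3bp2, an adaptor protein gene, Lcn2, the lipocalin 2 gene, and Folr1, a folate receptor gene, each with an adjusted p of 0.856. Sh3bp2 had -5.42, -0.81, 0.08 and -0.06 in C3H/HeMs lung, against 0.14, 0.00, -0.25 and -0.13 in A/J lung, so its value came from the control array of C3H/HeMs.

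The strain difference of most features in the early pairs did not carry over to the late pairs. Across all 8750 features, the mean difference in the control and 1 h pairs and that in the 12 h and 72 h pairs correlated at -0.06, and 4337 features (49.6%) had the same sign in both. Neighbouring pairs were more alike, with a correlation across features of 0.49 between control and 1 h and 0.46 between 12 h and 72 h. No pair shares an array with another. The late pairs are also the arrays that stood apart, so time and set of arrays cannot be told apart. The test of the late minus the early difference called 0 features (0%), and 1727 (19.7%) had an unadjusted p under 0.05. Wdr75, Bhmt and Prr30 were the named genes with the smallest p (adjusted p 0.0678 each). Wdr75, of ribosomal RNA processing, had -0.38, -0.53, -4.76 and -5.19 in C3H/HeMs lung, against -3.48, -3.82, -4.45 and -4.70 in A/J lung.

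**Figure D4:**
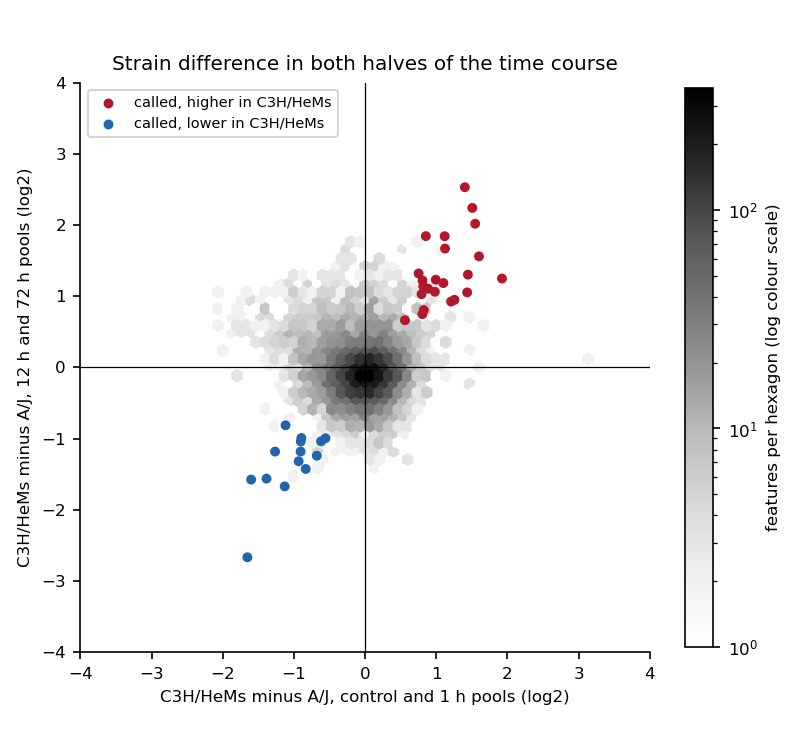
C3H/HeMs minus A/J difference in log2 ratio, as the mean of the control and 1 h pairs (horizontal axis) and the mean of the 12 h and 72 h pairs (vertical axis), for 8750 features binned in hexagons. Red and blue points are the 23 features called higher and the 14 called lower in C3H/HeMs in the fit of 12 arrays. They lie in the upper right and lower left quadrants. The calls were made on these same arrays over all times, so this place is not separate support. The cloud of all features has no slope, with a correlation of -0.06.

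In skin of the hind leg, 0 features passed for the same strains (0%), with 1199 at an unadjusted p under 0.05 (13.7%). Across all features the strain differences of lung and skin correlated at 0.02. Of the 37 features called in lung, 28 had the same sign in skin (75.7%, against 56.3% of all features), and 15 had that sign with an unadjusted p under 0.05 (8.03% of all features did). The opposite sign with such a p was found for 1 of the 37, Gzma, and for 496 of all 8750 features. Zfp945 differed by 1.77 ± 0.18 in skin and 1.78 ± 0.20 in lung. Xdh differed by -1.72 ± 0.26 in skin, Scyl2 by 1.40 ± 0.23 and Mrps12 by 1.22 ± 0.23, so these genes had the lung direction in other pools and another tissue. Skin p-values of these genes, unadjusted, were 4.82e-05 for Zfp945, 0.000451 for Xdh, 0.000667 for Scyl2 and 0.00152 for Mrps12.

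Gzma stood on the other side in skin, with a difference of -0.86 ± 0.27, and its level there was low, -2.43 in C3H/HeMs skin and -1.57 in A/J skin. Klrd1 differed by -0.17 ± 0.29, Hc by -0.10 ± 0.25 and Ccn4 by -0.37 ± 0.21 in skin. The test of lung minus skin called 1 feature (0.0114%), a probe with no gene name. Gzma had a lung minus skin value of 2.73 ± 0.35 (adjusted p 0.0718) and Ccn4 of 1.95 ± 0.26 (adjusted p 0.0792), so neither was shown to differ between the tissues. Tspan8, a tetraspanin gene, had the opposite form, with a strain difference of 0.10 ± 0.11 in lung and 2.43 ± 0.26 in skin (lung minus skin adjusted p 0.0718).

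**Figure D5:**
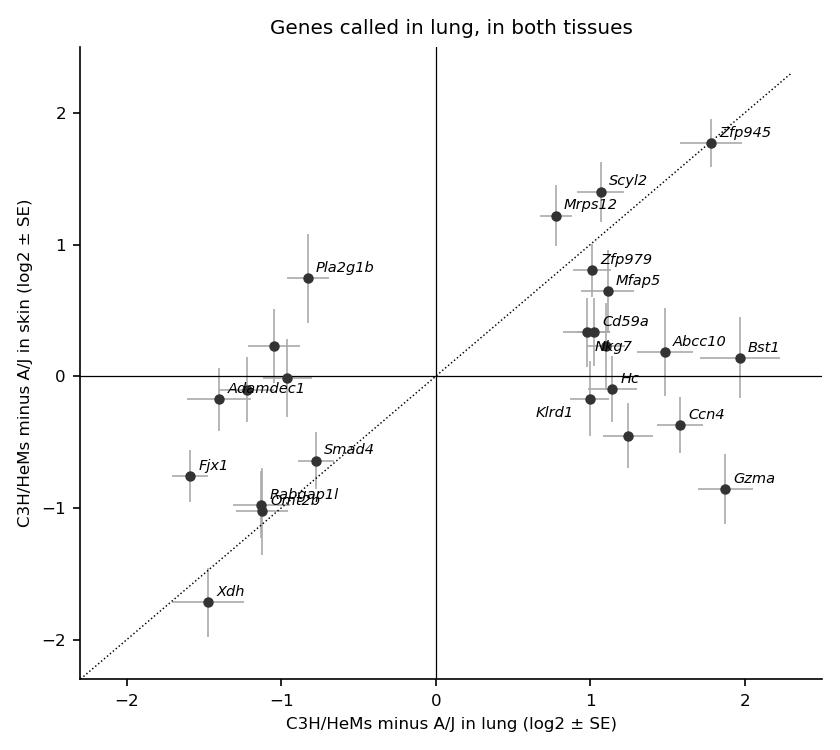
C3H/HeMs minus A/J difference in log2 ratio in lung (horizontal axis, fit of 12 arrays) and in skin (vertical axis, fit of 8 arrays) for the 25 named genes called in lung, with SE bars. The dotted line marks equal differences. Zfp945 lies on it, Scyl2, Mrps12, Xdh and Omt2b lie beyond 1 (2-fold) on the same side in skin, and Gzma lies on the opposite side.

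C57BL/6J lung sided with neither strain as a whole. Its mean was nearer to C3H/HeMs for 20 of the 37 called features and nearer to A/J for 17. Over all features it was nearer to C3H/HeMs for 53.5%, so the called features were divided much like the rest, and these arrays entered the fit that made the calls. Abcc10 (1.15) and Zfp945 (1.28) lay near the C3H/HeMs level in C57BL/6J lung. Cd59a (-1.56), Dclre1a (-0.15), Zfp979 (-0.41), Tmem252 (-0.64) and Adamdec1 (0.18) lay near or beyond the A/J level. Ifi207 lay below both strains, at -0.92. Gzma (0.30) and Ccn4 (0.23) lay between the strains, as did Fjx1 (-0.06).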

How the data were processed

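Each array compared tissue RNA with a reference mixed from RNA of 10 organs on a 2-colour Agilent cDNA platform with 9275 probes. The authors made the deposited log10 ratios with Agilent Feature Extraction, per the submitters' processing notes; its version, background and dye steps are not given in the sources used here. No value exceeded 2 in size. The number of arrays, not a depth, limits the precision. Per the labels, Cy3 marked the RNA of lung and Cy5 that of skin. The ratio was read as Cy5 over Cy3 and lung signs were turned, a direction that lung epithelium genes above the reference bear out. Ratios were multiplied by 3.32 to give log2, centred on each array's median and averaged over probes of 1 gene, for 8750 features in all (5908 named by symbol). Probes were assigned to genes by the platform annotation dated 2007. Of the probes, 6433 had 1 symbol, 381 several and 2461 none. A current table matched 6363 by gene ID with 0 symbols changed, so those symbols are current ones.

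Strain was tested with limma 3.58.1 (R 4.3.3; lmFit, eBayes) on the 8 lung arrays with time as a factor, with Benjamini-Hochberg adjustment over all features at 0.05. The interactions and skin were fitted likewise, and the fit of 12 lung arrays is an alternative. Scaling, exact 0 ratios, values at the limit, probes, the prior, a filter on small ratios and the arrays used were varied too. The times pair the arrays, though pairing by set cannot be told apart: deviations from the strain means correlated at 0.30, 0.35, 0.37 and 0.33 between arrays of the same time, at 0.18 and 0.35 between control and 1 h, at 0.22 and 0.23 between 12 h and 72 h, and below 0 between the sets. Fits were tested on simulated data. As fewer than 5 features of a direction passed, named genes are the 8 of each direction with the smallest p, up to 4 members per list, and 3 per interaction. Naming the genes called in the fit of 12 arrays, further list members (such as Ager, Sftpd, S100a8 and the Cd3 genes) and the promoters was decided with the values in view. The comparison, the lists and the rule were chosen with earlier results of these data known.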

Additional observations from a re-analysis of the deposited data

Results flagged for a closer look

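Of 276 groups of 4 arrays examined, 8 held 1 array far from the other 3, where chance gives about 1 in 20. The share was below that rate, so none of these arrays is shown to be unusual. In C3H/HeMs lung the control array stood apart for Adamdec1 (-0.44), Cdkn1a (0.41) and Sh3bp2 (-5.42). The 12 h array stood apart for Klf1 (-1.13), Prr30 (-5.55) and Scyl2 (1.47), and the 72 h array for Csnk1d (0.21). In A/J lung the 1 h array stood apart for Zfp979 (-0.0755). The strain difference of 1 probe with no gene name differed between the tissues, by 2.04 for lung minus skin (adjusted p 0.00945, limma). Its 4 lung pairs lay between 0.30 and 0.53, and its 4 skin pairs between -1.81 and -1.50.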

How the results depend on the processing

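The fit of 8 arrays called 0 features in either direction under every alternative that kept time as a factor and used only these arrays, except that 1 feature, Fjx1, was lower with equal median absolute deviation. Among these alternatives were leaving out each array in turn, which removes its whole pair, the control and 1 h pairs alone and the 12 h and 72 h pairs alone. The pairing of arrays by time mattered: with no replicate block 9 features were higher and 3 lower. With all 12 lung arrays, 23 were higher and 14 lower. That fit, read further after seeing the data, called 37 higher and 22 lower after quantile normalization and 22 lower with equal median absolute deviation. It called 35 higher and 35 lower with the set of arrays as a factor, and 4 higher and 2 lower without the 4 arrays that stood apart. Leaving out 1 of its 12 arrays gave 4 to 21 higher and 1 to 12 lower. The late minus early test called 1 feature after quantile normalization, the irradiated minus control test 1 with exact 0 ratios missing, and the lung minus skin test 0 after quantile normalization. A fit with fewer arrays has fewer residual degrees of freedom, and the cause of these changes in the calls was not tested. Of 551 values of 29 named genes under alternatives 0 reversed. These genes were picked for a small p, a call or a 2-fold gap in these data, so this is not separate support. None of them passed in the fit of 8 arrays: under the alternatives 518 values stayed above the threshold and 33 fell below it. The limits are 1 pool for each strain and time, a probe annotation dated 2007, and ratios to a mixed reference, which give no absolute level.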
